A study of Mus musculus with 8 samples.

Results

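*Trp53*, which encodes the transcription factor p53, and 9 genes that p53 activates directly were followed in fetal hearts of Dio3+/+ and Dio3-/- mice. *Dio3* encodes DIO3, the deiodinase that inactivates thyroid hormones. The 9 targets were *Mdm2*, *Ccng1*, *Trp53inp1*, *Bax*, *Bbc3*, *Phlda3*, *Sesn1*, *Sesn2* and *Zmat3*. All 10 genes were found by their symbol among 26590 gene symbols, in 20 of 51414 rows, each a UCSC known-gene transcript, and all 10 passed the filter on low values. Where a gene has several rows, its most abundant one is given unless another row is named. The hearts came from 4 Dio3+/+ and 4 Dio3-/- fetuses on a C57BL/6J background, 1 fetus per heart, and the Dio3-/- mice lack DIO3 in the whole animal. Total RNA of whole hearts was sequenced after removal of ribosomal RNA. The titles place all hearts at E13.5, the age field places 2 of the Dio3-/- hearts at E18.5, and the study's methods name a further age, so E13.5 is the age of the titles. The table holds the authors' mean of each genotype, read as RPKM (a read count per length of transcript and number of mapped reads), and the coefficient of variation (CV, the SD divided by the mean). It holds no value for a single heart and no read totals, so it cannot be said whether single hearts of the genotypes overlap. The depth of each heart is unknown from these values, and the study's methods give read numbers only as a range and an average over the samples.

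p53 is the central sensor of DNA damage, oncogenic growth and ribosomal stress. In unstressed cells the protein is made continuously and destroyed by the ubiquitin ligase MDM2, and stress blocks that destruction, so that p53 accumulates, binds its response elements and raises its targets, among them *Mdm2* itself. The activity of p53 is therefore read better from its targets than from its own transcript. Mouse embryos that lack *Mdm2* die early unless *Trp53* is removed as well, and excess p53 activity harms the developing heart.

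The element that p53 binds is built from 2 decamers of 10 bases, each with a C and a G at fixed places in its core. The RefSeq promoter windows (GRCm38.p6), from 250 bases before to 50 after a start site, cover 8 of the 10 genes with 11 windows, and *Trp53inp1* and *Zmat3* are the other two. The p53 consensus element without a spacer, which reads the same on both strands, was searched with the 4 core bases intact and at most 3 mismatches elsewhere in its 20 bases. Matches were found for *Trp53*, *Ccng1*, *Bbc3* and *Sesn1*, 4 of the 8 genes, where 1.63% of all 27025 gene symbols and 1.38% of all 32851 windows held one. They are shown because they are the stretches near a start site through which p53 could act on these genes. Each is given 5′ to 3′ on the strand of its gene, with the match in capitals.
Ccng1: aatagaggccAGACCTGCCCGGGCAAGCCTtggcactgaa
Bbc3: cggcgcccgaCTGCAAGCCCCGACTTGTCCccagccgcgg
Trp53: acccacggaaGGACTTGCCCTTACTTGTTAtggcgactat
Sesn1: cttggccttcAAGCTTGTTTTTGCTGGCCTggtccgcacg

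The *Ccng1* stretch lies at chr11:40755452-40755491 on the minus strand, with 1 mismatch, and its match begins 195 bases before the start site. The distances here are counted from the first base of the match. The *Bbc3* stretch, at chr7:16309476-16309515 on the plus strand, has 3 mismatches and lies within the gene but in no exon by the GENCODE annotation, 97 bases before the start site. The *Trp53* stretch, at chr11:69580274-69580313 on the plus strand, has 3 mismatches and lies in no annotated gene, 75 bases before the start site. The *Sesn1* stretch, at chr10:41887256-41887295 on the plus strand, also has 3 mismatches and lies within the gene but in no exon, 173 bases before the start site. With at most 2 mismatches *Ccng1* alone kept its match, and 0.326% of all windows held one. A match is a run of letters and not a measured site, and p53 elements outside these windows were not searched.

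The genotypes differed at other genes. The 5 genes listed as known to respond to thyroid hormone (*Klf9*, *Hr*, *Dbp*, *Gpd2* and *Art3*) all rose in Dio3-/- hearts, with log2 fold changes from 0.35 to 2.01 and adjusted *P* values up to 0.0078 by limma, and 3 of the 5 passed with the unequal-variance test calculated from the summaries. The study lists *Klf9*, *Dbp*, *Gpd2* and *Art3* as changed in these same hearts and also reports higher *Hr* in mutant fetal hearts. Their rise here is therefore no independent check of the genotypes. The *Dio3* transcript was too low to check the labels, with a mean of 0.35 RPKM (CV 1.23) in the wild type and 0.13 RPKM (CV 0.76) in the mutant. The series describes the fetuses as male, yet *Xist* was read at 35.64 RPKM in the Dio3+/+ mean and 39.97 RPKM in the Dio3-/- mean, and 4 Y-linked genes, present in each mean, had CVs from 1.03 to 1.46. The part of sex in the values was not tested. The 6 red cell genes, embryonic globins among them, summed to 37274 RPKM in wild-type and 12746 RPKM in mutant hearts, and all 6 had lower means in Dio3-/- hearts. Of the red cell genes only *Hbb-bh1* passed (limma-adjusted *P* = 0.047), and none did with the unequal-variance test. The 8 hepatocyte genes summed to 22.91 RPKM and 122.59 RPKM, with CVs from 0.18 to 1.41, and none passed (adjusted *P* from 0.121 to 0.242 by limma). The 6 cardiomyocyte genes, none of which passed, summed to 5937 RPKM and 6925 RPKM. Sums for the 5 endothelial genes were 204.75 and 221.87 RPKM, for the 5 epicardial genes 89.41 and 95.82 RPKM, for the 5 fibroblast genes 735.39 and 640.75 RPKM, and for the 5 macrophage genes 22.08 and 20.25 RPKM, and none of these genes passed. None of the 10 genes of the p53 group is a marker of one of these cell types, the part of cell composition in their values was not tested, and fewer cells of a type and less RNA per cell cannot be told apart in whole hearts.

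No difference in p53 or its targets between Dio3+/+ and Dio3-/- hearts passed the test, and the largest, in *Bbc3*, was a ratio of 0.697. A gene passed the test where its *P*, adjusted over all tested rows, was under 0.05. None of the 10 genes passed (adjusted *P* from 0.172 to 0.910 by limma), 1 of them (*Bbc3*) had an unadjusted *P* under 0.05, and none passed when the unequal-variance test of the study was calculated from the summaries. By that test only 32 of all 14657 tested genes passed in any row. A count of 0 by it, here or in the lists below, is near that share and says little about the genes. By limma, 2.29% of all 14657 genes tested passed in the row with the highest mean, and a count of 0 among 10 is near that share. The mean of Dio3-/- hearts was above that of Dio3+/+ hearts for 7 of the 10 genes and below it for 3, or for 5 and 5 once the median shift of all rows (0.04 on the log2 scale) was taken off, while 63.3% of all tested genes were above without that step. The median log2 fold change of the 10 genes was 0.06, and that of all genes was 0.04. Each of the 10 differences was smaller than the SDs of both genotypes added together.

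**Figure D1:**
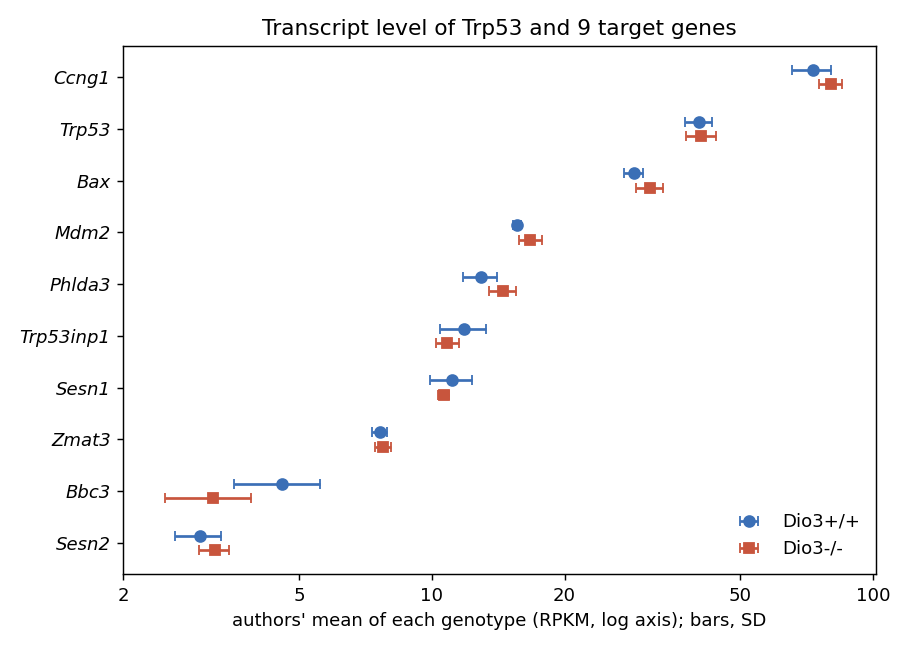
Mean transcript level of each gene in Dio3+/+ (circles) and Dio3-/- hearts (squares), in RPKM on a log axis, with bars of 1 SD derived from the deposited CV. *Ccng1* is highest at 72.97 and 80.33 RPKM, and the bars of the genotypes overlap for each of the 10 genes, *Bbc3* included.

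*Trp53* itself was well expressed. Its mean was 40.28 RPKM (CV 0.07) in Dio3+/+ and 40.86 RPKM (CV 0.08) in Dio3-/- hearts. The level was above that of 87.9% of the tested genes. The log2 fold change was 0.02 (standard error 0.07, 95% interval -0.14 to 0.18, limma-adjusted *P* = 0.910). On the linear scale the interval ran from 0.910-fold to 1.13-fold, so a larger change of the transcript lies outside it.

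The 2 inhibitors among the targets had somewhat higher means in Dio3-/- hearts, within the spread. *Mdm2*, which closes the negative feedback loop on p53, had 15.63 RPKM (CV 0.02) in Dio3+/+ and 16.74 RPKM (CV 0.06) in Dio3-/- hearts. Its log2 fold change was 0.10 (standard error 0.05, 95% interval -0.02 to 0.21, limma-adjusted *P* = 0.364). *Ccng1*, which encodes cyclin G1, a partner of protein phosphatase 2A that acts on MDM2, was the most abundant of the 10 genes and the one with the closest match to the p53 element in its promoter window. It had 72.97 RPKM (CV 0.10) in Dio3+/+ and 80.33 RPKM (CV 0.06) in Dio3-/- hearts. Its log2 fold change was 0.14 (standard error 0.08, 95% interval -0.03 to 0.31, limma-adjusted *P* = 0.368). The ratio of the *Mdm2* to the *Trp53* mean was 0.388 in Dio3+/+ and 0.410 in Dio3-/- hearts, given without a test.

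The 4 targets that act in cell death and survival had differences of either sign, none of which passed. *Bbc3* encodes PUMA, a BH3-only protein that frees the effectors of mitochondrial apoptosis, and it had the largest difference of the group. Its mean was 4.58 RPKM (CV 0.22) in Dio3+/+ and 3.19 RPKM (CV 0.22) in Dio3-/- hearts, a ratio of 0.697. The log2 fold change was -0.46 (standard error 0.17, 95% interval -0.83 to -0.09), with an unadjusted *P* of 0.020 and an adjusted *P* of 0.172 by limma, so the difference did not pass over all genes. Of all tested genes, 4.41% differed by more in either direction. The CV of 0.22 in each genotype was the highest of the group, and *Bbc3* was also among its lowest transcripts.

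*Bax*, the effector that opens the outer membrane of mitochondria, was more than 6 times as abundant as *Bbc3*. It had 28.73 RPKM (CV 0.05) in Dio3+/+ and 31.16 RPKM (CV 0.07) in Dio3-/- hearts, and a log2 fold change of 0.12 (standard error 0.06, 95% interval -0.02 to 0.25, limma-adjusted *P* = 0.347). The ratio of the *Bax* to the *Bbc3* mean was 6.27 in Dio3+/+ and 9.77 in Dio3-/- hearts, without a test. *Phlda3*, whose product competes with AKT for membrane lipids and so restrains survival signaling, had 12.93 RPKM (CV 0.09) and 14.48 RPKM (CV 0.07). Its log2 fold change of 0.16 (standard error 0.07, 95% interval -0.01 to 0.32, limma-adjusted *P* = 0.292) was the highest of the group. *Trp53inp1*, which encodes a nuclear protein that promotes p53 phosphorylation and takes part in autophagy, had 11.84 RPKM (CV 0.12) in Dio3+/+ and 10.85 RPKM (CV 0.06) in Dio3-/- hearts. Its log2 fold change was -0.12 (standard error 0.08, 95% interval -0.31 to 0.07, limma-adjusted *P* = 0.489).

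The sestrins, stress proteins that hold back the growth kinase complex mTORC1, were at levels set apart from each other and close between the genotypes. *Sesn1* had 11.11 RPKM (CV 0.11) in Dio3+/+ and 10.65 RPKM (CV 0.03) in Dio3-/- hearts, and a log2 fold change of -0.06 (standard error 0.07, 95% interval -0.23 to 0.11, limma-adjusted *P* = 0.731). *Sesn2*, a leucine sensor that other stress factors also induce, had 2.98 RPKM (CV 0.12) and 3.22 RPKM (CV 0.08), and a log2 fold change of 0.10 (standard error 0.09, 95% interval -0.11 to 0.30, limma-adjusted *P* = 0.623). *Sesn2* was the lowest of the 10 genes over both genotypes. *Zmat3* encodes a zinc finger protein that binds RNA and influences splicing. It had 7.62 RPKM (CV 0.04) in Dio3+/+ and 7.76 RPKM (CV 0.04) in Dio3-/- hearts, and a log2 fold change of 0.02 (standard error 0.05, 95% interval -0.09 to 0.14, limma-adjusted *P* = 0.852).

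**Figure D2:**
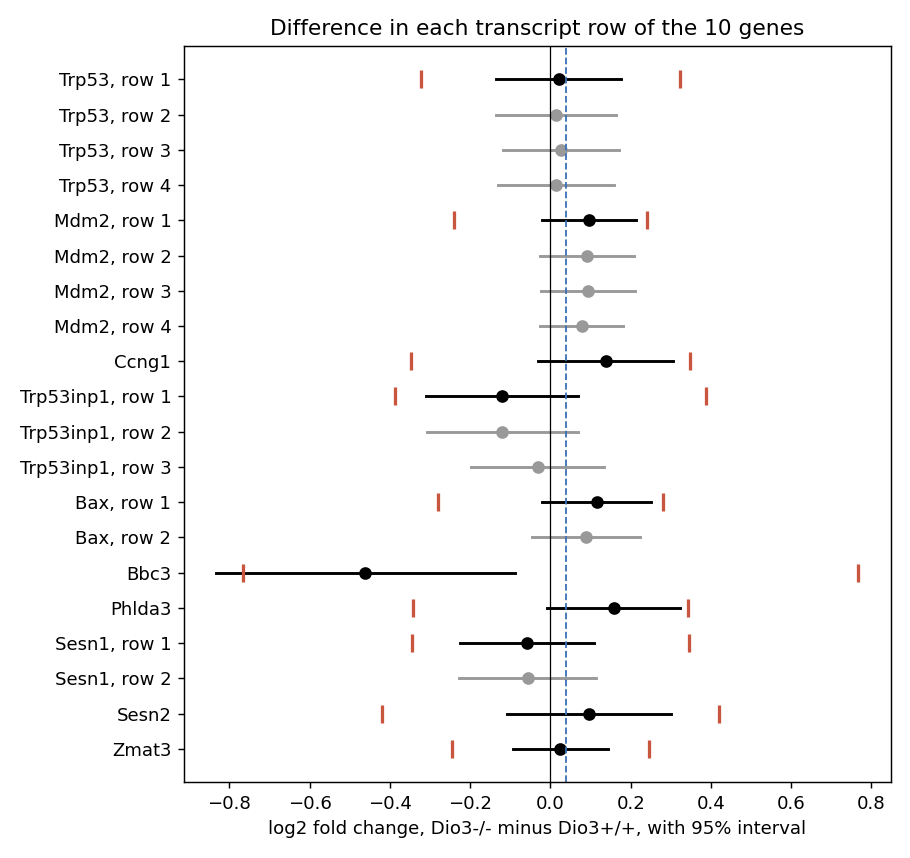
Log2 fold change (Dio3-/- minus Dio3+/+, on the log2(RPKM + 0.5) scale) with its 95% interval for all 20 transcript rows, black for the row with the highest mean of a gene and grey for its other rows. The red ticks mark the size that would have passed at that row's standard error and the dashed line the median of all tested rows, 0.04; no black point reaches its red tick.

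The order of the levels was *Ccng1*, *Trp53*, *Bax*, *Mdm2*, *Phlda3*, *Trp53inp1*, *Sesn1*, *Zmat3*, *Bbc3* and *Sesn2*, and *Ccng1* was 24.5 times as high as *Sesn2* in Dio3+/+ hearts and 24.9 times in Dio3-/- hearts. RPKM is a value per transcript length, so length is allowed for in this order. Only uniquely mapping reads were kept, and how far that affects the levels of different genes was not tested. *Trp53inp1* and *Sesn1* did not differ by more than the sum of their SDs in either genotype, *Phlda3* and *Trp53inp1* did not in Dio3+/+ hearts, and *Bbc3* and *Sesn2* did not in Dio3-/- hearts, where *Sesn2* had the higher mean. The other neighbours in the order were further apart than that sum in both genotypes. The median CV of the 10 genes was 0.095 in Dio3+/+ and 0.065 in Dio3-/- hearts, close to the 0.090 and 0.060 of all tested genes. The CV was lower in Dio3-/- hearts for 5 genes, higher for 3 and equal for 2.

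The spread between hearts set what could be seen. At its own standard error and with the adjustment over all rows, a gene of the group would have passed at a change of between 1.18-fold (*Mdm2*) and 1.70-fold (*Bbc3*), and the median was 0.34 on the log2 scale. The intervals of the 9 genes other than *Bbc3* reached down to 0.807-fold (*Trp53inp1*) and up to 1.25-fold (*Phlda3*). Smaller changes were not detectable here. The intervals are not adjusted for the number of genes.

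The other transcript rows of these genes gave the same picture in the test. No row of any of the 10 genes passed, where 2.59% of all tested genes had at least 1 row that did. The 4 rows of *Trp53* had Dio3+/+ means from 28.12 to 40.28 RPKM and log2 fold changes from 0.01 to 0.03. The 4 rows of *Mdm2*, a gene with a promoter that p53 drives and one that it does not, had log2 fold changes from 0.08 to 0.10. In the lowest of them, the difference was larger than the SDs of both genotypes added together. Its means were 12.17 RPKM (CV 0.01) in Dio3+/+ and 12.87 RPKM (CV 0.04) in Dio3-/- hearts. The rows of a gene share most of their reads and are no independent measurements. The 3 rows of *Trp53inp1* differed most in level, with Dio3+/+ means from 4.53 to 11.84 RPKM and log2 fold changes from -0.12 to -0.03. The rows of *Bax* had log2 fold changes of 0.09 and 0.12, and both rows of *Sesn1* had -0.06. By the GENCODE annotation *Bax*, *Sesn1* and *Sesn2* each overlap another gene model on the same strand, and reads that such models share cannot be assigned to one of them.

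**Figure D3:**
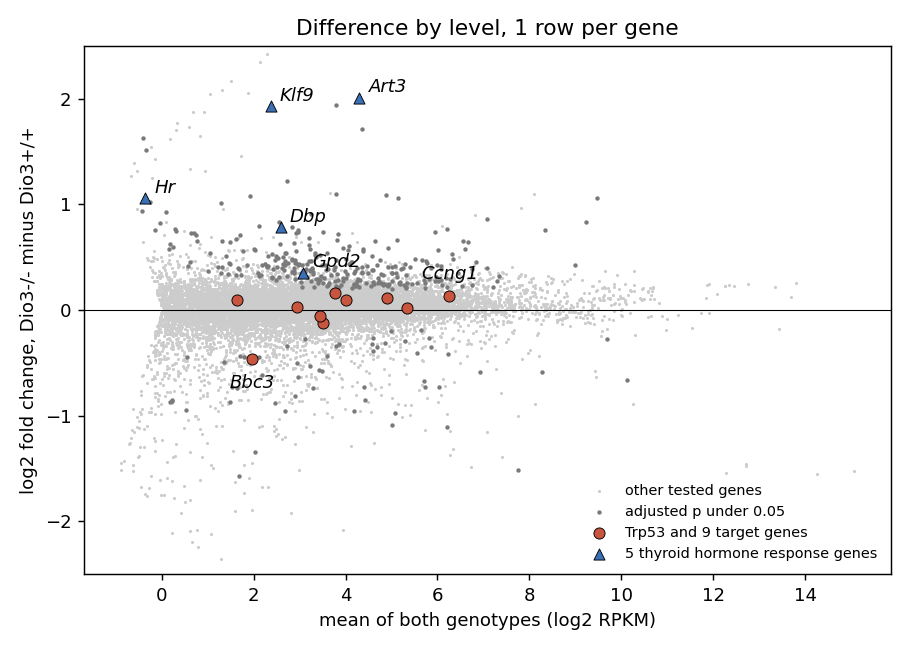
Log2 fold change against the mean level of both genotypes (log2 RPKM) for the tested genes, 1 row each, with p53 and its targets as red circles and 5 thyroid hormone response genes as blue triangles; 8 genes lie outside the vertical axis. The red circles lie within the grey cloud at all levels, with *Bbc3* lowest at -0.46, and the triangles lie from 0.35 to 2.01.

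Of a further list of 34 direct targets of p53, 28 were above the filter, and none passed (adjusted *P* from 0.065 to 0.983 by limma; 6 with an unadjusted *P* under 0.05, and none with the unequal-variance test). Both counts were near the shares over all tested genes, 2.29% passing and 19.7% with an unadjusted *P* under 0.05. Their median log2 fold change was 0.03, with 15 genes above 0 and 13 below. *Cdkn1a* encodes p21, the inhibitor of cyclin-dependent kinases through which p53 arrests the cell cycle. It averaged 11.44 RPKM (CV 0.26) in Dio3+/+ and 10.09 RPKM (CV 0.05) in Dio3-/- hearts, and its log2 fold change was -0.17 (standard error 0.15, limma-adjusted *P* = 0.591). The 3 most abundant of these targets were *Rps27l*, a ribosomal protein paralog, *Plk2*, a polo-like kinase, and *Ei24*, a protein of the endoplasmic reticulum, with log2 fold changes of 0.09, -0.02 and 0.12. *Gadd45a*, a stress protein in growth arrest and repair that was picked out after its value was seen, had means of 7.01 RPKM (CV 0.23) and 4.75 RPKM (CV 0.24), with a log2 fold change of -0.52 (limma-adjusted *P* = 0.161). Of the 6 targets with an unadjusted *P* under 0.05 by limma, *Gadd45a* and *Sfn* (-0.69) were lower in Dio3-/- hearts. *Gtse1* (0.20), *Tigar* (0.29), *Aen* (0.22) and *Ei24* (0.12) were higher. *Gtse1* is also in the study's own list of differentially expressed genes. That list comes from these same hearts, so a listing is no independent check of the values here. The study's text names its cutoff as a q value and a figure caption as a *P* value.

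Of 25 genes listed as regulators, family or partners of p53, 22 were above the filter and 1 passed, where 2.29% of all tested genes passed. It was *Trp53inp2*, which was listed under family and partner genes and rose in Dio3-/- hearts. With the unequal-variance test of the study, calculated here from the rounded summaries, it did not pass (adjusted *P* = 0.079), where 32 of all 14657 tested genes did in any row. *Trp53inp2* is in the study's own list of differentially expressed genes, which comes from the same hearts. Its product, also known as DOR, is a partner of autophagy and a coactivator of nuclear receptors, the thyroid hormone receptor among them, and despite its name it is not a direct target of p53. The mean was 78.55 RPKM (CV 0.11) in Dio3+/+ and 123.27 RPKM (CV 0.08) in Dio3-/- hearts. The log2 fold change was 0.65 ± 0.09 (standard error), with limma giving an adjusted *P* of 0.0070. Its other row, with means of 30.59 and 43.44 RPKM, had a log2 fold change of 0.50 and did not pass (limma-adjusted *P* = 0.105). *Mdm4*, the partner of MDM2 that masks p53, had means of 13.48 and 13.71 RPKM and a log2 fold change of 0.02 (limma-adjusted *P* = 0.914). The 3 most abundant regulators, *Rpl11*, *Npm1* and *Rpl5*, which can bind MDM2 under nucleolar stress, had log2 fold changes of 0.09, -0.02 and 0.02. The median of the 22 was 0.03.

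The 10 cell division genes listed that p53 lowers through p21 and the DREAM repressor were all above the filter. None passed (adjusted *P* from 0.084 to 0.357 by limma, and none with the unequal-variance test calculated from the summaries). *Birc5* and *Cdc20* are in the study's own list of differentially expressed genes, which comes from the same hearts. All 10 had a higher mean in Dio3-/- hearts, where 63.3% of all tested genes did. By limma 9 had an unadjusted *P* under 0.05, against 19.7% of all tested genes. The part of p53 in the values of these 10 genes was not tested. Their log2 fold changes were small and alike, from 0.14 to 0.19 with a median of 0.16. The 3 most abundant were the mitotic cyclins *Ccna2*, with means of 88.80 and 99.11 RPKM, *Ccnb1*, with 67.21 and 75.27 RPKM, and *Ccnb2*, with 49.12 and 55.70 RPKM.

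The BCL2 family, to which *Bax* and *Bbc3* belong, held 2 further genes that passed among 10 tested, both of them proapoptotic and both higher in Dio3-/- hearts, where 2.29% of all tested genes passed. *Bok*, an effector related to *Bax*, rose from a mean of 6.39 RPKM (CV 0.05) to 8.29 RPKM (CV 0.07), a log2 fold change of 0.35 (limma-adjusted *P* = 0.028). *Bik*, a BH3-only gene like *Bbc3*, rose from 7.51 RPKM (CV 0.10) to 10.01 RPKM (CV 0.04), a log2 fold change of 0.39 (limma-adjusted *P* = 0.029). Neither passed with the unequal-variance test calculated from the summaries (adjusted *P* = 0.136 for *Bok* and 0.135 for *Bik*), and *Bik* did not without the expression filter (limma-adjusted *P* = 0.0501). *Bok* is in the study's own list of differentially expressed genes, which comes from the same hearts. Once the median shift between the genotypes was taken off, the log2 fold changes were 0.31 for *Bok* and 0.35 for *Bik*, and neither passed (limma-adjusted *P* = 0.053 for each). *Bcl2l1* encodes the survival protein BCL-XL, on which red cell precursors depend. Its means were 33.95 RPKM (CV 0.21) and 20.31 RPKM (CV 0.30), a log2 fold change of -0.73 that did not pass (limma-adjusted *P* = 0.099). The red cell genes were lower in the same hearts, and their part in this value was not tested. *Mcl1* and *Bak1* had log2 fold changes of 0.15 and 0.19.

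The third sestrin gene and the complexes that sestrins act on were represented by 10 genes, all tested, of which none passed (adjusted *P* from 0.200 to 0.933 by limma; 1 with an unadjusted *P* under 0.05, and none with the unequal-variance test), where 2.29% of all tested genes passed and 19.7% had an unadjusted *P* under 0.05. *Sesn3*, which FOXO factors rather than p53 control, had means of 22.42 RPKM (CV 0.20) and 20.93 RPKM (CV 0.06), the highest level of the 3 sestrin genes, and a log2 fold change of -0.10. *Sec13* and *Seh1l*, of the GATOR2 complex that binds SESN2, had log2 fold changes of 0.06 and 0.01, and *Prkaa2*, a catalytic subunit of the energy sensor AMPK, had 0.25 (limma-adjusted *P* = 0.200).

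**Figure D4:**
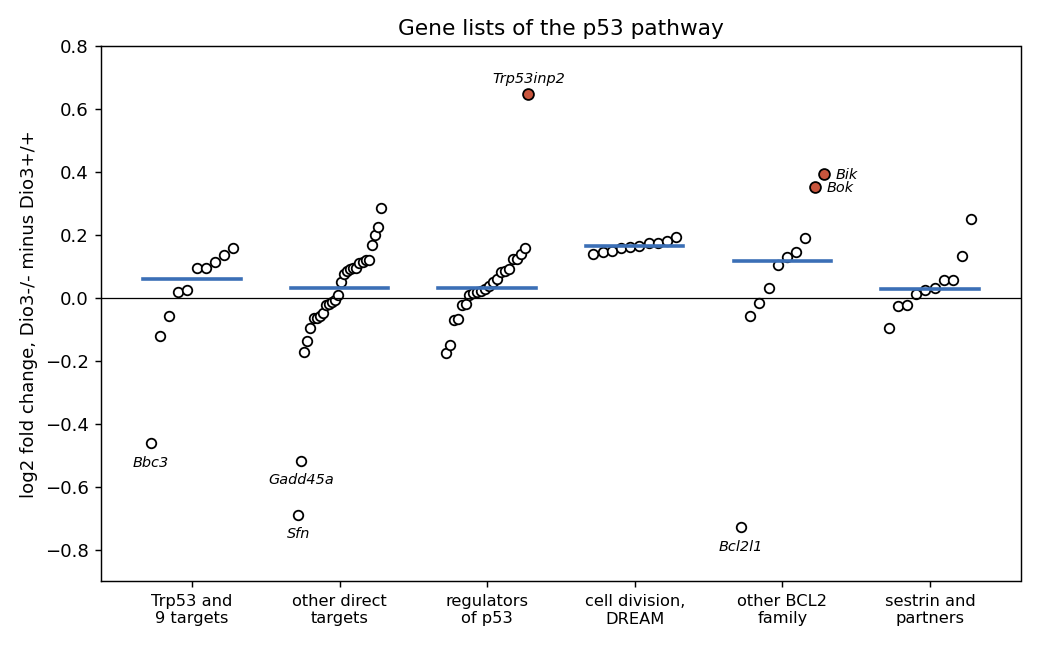
Log2 fold change (Dio3-/- minus Dio3+/+) of the tested genes of 6 lists, ordered within each list, with filled points for the genes that passed and blue lines at the median of a list. The 3 filled points are *Trp53inp2*, *Bok* and *Bik*, and the points of p53 and its targets are all open.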

How the data were processed

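Hearts were sequenced as single-end reads for the authors by a sequencing company. Per the labels and the methods, reads were aligned with NovoAlign (version 2.08), and uniquely mapping reads were kept, with coverage scaled in proportion to the smallest library. The genome build and whether the libraries kept the strand are not given in the sources used here. The authors deposited a mean per genotype, read as RPKM because the methods use that unit, and the CV, an SD-to-mean ratio. The table also holds the authors' own fold changes and q values, which were not used.

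The difference of log2(mean + 0.5) was tested in limma 3.58.1 under R 4.3.3, taking SDs on that scale from the CVs, 6 residual and 3.52 prior degrees of freedom, a mean-variance trend and Benjamini-Hochberg adjustment over the 32703 rows above 1 RPKM in at least 1 genotype. The fold changes understate those of low genes. The *P* values set the genotype difference against the spread between fetuses, as rebuilt from the rounded CVs and moderated over rows. The members and lists were chosen with earlier results of these data known, as was the limit of 3 mismatches. Named were the 10 genes, other listed genes that passed, the 3 most abundant of each list, *Cdkn1a* and *Mdm4*. With values in view, *Gadd45a*, *Gtse1*, *Tigar*, *Aen*, *Sfn*, *Birc5*, *Cdc20* and *Sesn3* in the report and the low genes of the closing section were added. Of the further targets, *Tigar* was matched by its older symbol and *Pidd1* by none. Sex-linked genes were added after the table was seen. Sequences came from RefSeq. Python 3.11.15 and matplotlib were used for figures.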

Additional observations from a re-analysis of the deposited data

How the results depend on the processing

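None of the 10 genes passed, in the highest or in any row, under the 11 alternatives, namely a pseudocount of 0.1 or 1, testing of unfiltered rows, a mean over both genotypes above 5 RPKM (where *Bbc3* and *Sesn2* are not tested), no mean-variance trend, 1 row per gene, the unequal-variance test, centring on the median log2 ratio, a lognormal SD, CVs raised by 0.005, and no rows with a CV above 0.5. Of their 108 log2 fold changes 106 kept their sign, with adjusted *P* values from 0.141 to 0.940. Centring turned *Trp53* to -0.018 and *Zmat3* to -0.013, since it lowers each value by 0.04, and left 5 genes above and 5 below 0. The other direct targets gave 0 calls under each alternative. The listed regulators and partners went from 1 to 0 with the unequal-variance test calculated from the summaries, where *Trp53inp2* had an adjusted *P* of 0.079. *Bok* (0.136) and *Bik* (0.135) lost their calls with it too, and *Bik* also without an expression filter (0.0501 by limma). The study's own list of differentially expressed genes, from the same hearts, holds *Trp53inp2* and *Bok*. Genes passing in any row were 379, and 221 without a filter, 32 with the unequal-variance test, 197 with centring and 206 with raised CVs; of the 379, 317 were higher, and of the 197, 140 were. Matches to the p53 element were found for 1 gene with at most 1 or 2 mismatches, 4 with at most 4 and 5 with at most 5. At the limits of 1, 2, 4 and 5, 0.067%, 0.326%, 4.8% and 12.4% of all windows held one. No paired analysis was possible because the table gives means per genotype, and leaving out single hearts was not possible for the same reason.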

Other observations

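Several genes of the p53 network were under the filter of 1 RPKM in both genotypes and were not tested. The paralogs of p53 were among them, with *Trp63* at means of 0.77 RPKM (CV 0.97) in Dio3+/+ and 0.17 RPKM (CV 0.51) in Dio3-/- hearts and *Trp73* at 0.04 and 0.02 RPKM. *Cdkn2a*, whose ARF product inhibits MDM2, had 0.07 and 0.12 RPKM. Of the death genes that p53 induces, *Pmaip1*, which encodes the BH3-only protein NOXA, had 0.84 RPKM (CV 0.23) and 0.87 RPKM (CV 0.09), and the death receptor gene *Fas* had 0.67 RPKM (CV 0.17) and 0.80 RPKM (CV 0.18). *Hrk*, a BH3-only gene of neurons, had 0.05 and 0.04 RPKM.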
